A study of Homo sapiens with 4 samples.

Results

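The 10 human Toll-like receptor genes, TLR1 to TLR10, were followed in 4 lists of ChIP-seq peaks, 2 for WDR5 and 2 for H3K4me3. Members were the lines of each list whose gene symbol was one of these 10, out of 20136 protein-coding genes of the annotation. RS4;11 is a B-cell acute lymphoblastic leukemia line and THP-1 a monocytic acute myeloid leukemia line. Both carry an MLL rearrangement, grew in RPMI1640 with serum, and have no treatment in the labels. Each line gave 1 WDR5 sample and 1 H3K4me3 sample, so no difference between the lines could be tested, and every statement on presence or width compares single samples of single cell lines. Samples were grouped by the labelled cell line and antibody. For 2 samples, H3K4me3 of RS4;11 and WDR5 of THP-1, the labelled leukemia type is that of the other line, and the types given here come from the study.

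Toll-like receptors are membrane proteins of the innate immune system that bind molecules of microbes and start the signals that end in NF-κB and interferon regulatory factors. TLR1, TLR2, TLR6 and TLR10 belong to the same subfamily, whose TLR2 complexes sense lipopeptides at the cell surface, TLR4 senses lipopolysaccharide and TLR5 flagellin. TLR3, TLR7, TLR8 and TLR9 sense nucleic acids inside endosomes. Monocytes are known for TLR2, TLR4, TLR5 and TLR8, and B cells for TLR7, TLR9 and TLR10. H3K4me3, trimethylated lysine 4 of histone H3, marks the start of active genes. WDR5 is a subunit of the MLL complexes that write this mark.

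The promoters of these genes differ in sequence, and 4 of them are shown to let the composition be seen. They are TLR5 and TLR6, with an H3K4me3 peak at the transcription start site (TSS) in both lines, TLR9, with one in RS4;11 only, and TLR8, with none in either. Each line gives the 250 bp before the TSS, 5′ to 3′ in the direction of transcription, from the RefSeq promoter table (GRCh38), matched once and exactly in GRCh37 within 50 kb of the gene. Capitals mark CpG dinucleotides.
TLR5: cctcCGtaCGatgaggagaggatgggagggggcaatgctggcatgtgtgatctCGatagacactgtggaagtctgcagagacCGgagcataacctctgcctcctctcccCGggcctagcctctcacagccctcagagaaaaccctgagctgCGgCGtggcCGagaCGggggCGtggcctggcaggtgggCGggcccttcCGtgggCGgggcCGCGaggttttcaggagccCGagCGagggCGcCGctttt
TLR6: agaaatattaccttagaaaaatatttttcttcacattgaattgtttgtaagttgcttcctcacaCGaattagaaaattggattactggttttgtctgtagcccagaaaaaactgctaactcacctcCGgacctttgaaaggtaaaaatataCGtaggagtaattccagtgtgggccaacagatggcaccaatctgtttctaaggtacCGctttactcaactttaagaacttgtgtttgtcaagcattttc
TLR8: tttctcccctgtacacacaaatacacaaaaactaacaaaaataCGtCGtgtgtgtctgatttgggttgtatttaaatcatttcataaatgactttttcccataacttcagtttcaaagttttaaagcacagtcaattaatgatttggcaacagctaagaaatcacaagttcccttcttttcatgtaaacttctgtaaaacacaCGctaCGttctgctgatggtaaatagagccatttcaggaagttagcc
TLR9: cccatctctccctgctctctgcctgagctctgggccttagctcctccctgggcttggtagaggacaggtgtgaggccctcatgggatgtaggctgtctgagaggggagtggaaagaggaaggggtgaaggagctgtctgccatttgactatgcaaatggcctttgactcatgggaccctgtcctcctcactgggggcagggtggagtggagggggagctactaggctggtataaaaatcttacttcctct
In GRCh37 (hg19) these stretches are chr1:223316591-223316840 on the minus strand for TLR5 and chr4:38858439-38858688 on the minus strand for TLR6. They are chrX:12924489-12924738 on the plus strand for TLR8 and chr3:52259662-52259911 on the minus strand for TLR9. The TLR5 stretch holds 19 CpG, the TLR6 and TLR8 stretches 4 each, and the TLR9 stretch 0. None of the 4 overlaps an annotated exon. The table also held TLR2, TLR3 and TLR4, whose upstream stretches overlap first exons of other transcripts and are not printed. TLR1, TLR7 and TLR10 had no entry.

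The only WDR5 peak inside a receptor gene lay in the first intron of TLR6 in RS4;11 cells, at chr4:38857136-38857484 (349 bp). The only other WDR5 peak listed under a receptor was a THP-1 peak at chr3:52278885-52279148 (264 bp), given for TLR9. The central 300 bp of the former (chr4:38857161-38857460) and the whole of the latter are shown from GRCh37, plus strand, with CpG in capitals as above.
RS4;11 WDR5 peak in TLR6: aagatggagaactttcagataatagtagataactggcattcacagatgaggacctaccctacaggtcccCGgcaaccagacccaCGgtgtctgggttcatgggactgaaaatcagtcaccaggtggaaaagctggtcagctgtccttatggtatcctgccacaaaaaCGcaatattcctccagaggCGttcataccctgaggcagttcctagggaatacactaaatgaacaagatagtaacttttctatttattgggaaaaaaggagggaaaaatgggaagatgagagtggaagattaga
THP-1 WDR5 peak listed under TLR9: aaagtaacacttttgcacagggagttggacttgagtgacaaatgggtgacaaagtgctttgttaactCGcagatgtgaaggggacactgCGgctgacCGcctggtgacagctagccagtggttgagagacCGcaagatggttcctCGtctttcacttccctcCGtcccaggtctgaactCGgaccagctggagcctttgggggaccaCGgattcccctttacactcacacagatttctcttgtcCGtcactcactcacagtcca
G and C made up 41.3% of the TLR6 peak and 53.0% of the other, with 4 and 9 CpG. Neither peak overlaps an annotated exon.

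What a missing peak means in these lists has to be read with care. The widest H3K4me3 peak was 4478 bp in RS4;11 and 4446 bp in THP-1. ACTB, B2M, TBP and GAPDH, genes that nearly every cell uses, had no H3K4me3 peak at any annotated TSS in either list, whereas PGK1 had one of 2546 bp in RS4;11 and 2221 bp in THP-1. These 5 genes were chosen after the lists had been seen. Among genes with a TSS peak of 4000 bp or more in RS4;11, 64.1% also had one in THP-1, against 94.3% of those with 2000 to 3000 bp and 66.2% of those under 1000 bp. From THP-1 to RS4;11 the shares were 74.4%, 87.7% and 40.5%. A receptor without a listed peak is therefore called unlisted here, and not unmarked. Why such genes lack a peak was not tested.

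The lineage markers followed the labelled lines only in part. An H3K4me3 peak was listed at the TSS for 8 of 12 monocyte markers in THP-1 and 4 of 12 in RS4;11, beside 55.3% and 49.2% of all protein-coding genes, with CD68, ITGAM, S100A8 and S100A9 in THP-1 only. MPO, FCGR1A and CEBPA were unlisted in both lines. From the canonical TSS the counts were 9 and 4, since CSF1R had 2418 bp there in THP-1. RS4;11 had a CSF1R peak of 3713 bp at another annotated TSS. B-lineage markers were listed for 4 of 9 in RS4;11 and 4 of 9 in THP-1, near the 49.2% and 55.3% of all genes, and from the canonical TSS for 3 and 4. CD79A was in RS4;11 only. CD79B had 2921 bp in RS4;11 and, from the canonical TSS but not from the 5′ end, 946 bp in THP-1. Against the labelled lineages, PAX5 (4037 bp) and EBF1 (2472 bp), both defining factors of B cells, were listed in THP-1 and not in RS4;11. The RAG1 count in both lines comes from the peak of the adjoining TRAF6. Of the 5 T-cell and erythroid genes, CD8A was listed in both lines, and CD3D, CD3E, GATA1 and HBB in neither. At its canonical TSS CD8A was listed in THP-1 only, with 874 bp. The part of these differences in the receptor results was not tested.

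All 10 receptors were listed with at least 1 H3K4me3 peak in both lines, but this listing reaches 20 kb from a transcript and held for 73.4% of protein-coding genes in RS4;11 and 78.4% in THP-1. Under the receptors stood 20 distinct peaks of 24212 in RS4;11 and 19 of 26523 in THP-1. Of these, 13 in each line overlapped a peak of the other line by at least 1 bp. The share of all peaks that overlap is not given here, so this count says nothing particular to the receptors. The nearest TSS was that of another gene for 4 of the 20, including a gene model that spans TLR9, and for 4 of the 19. Neighboring receptors shared peaks, so that a peak at TLR1 was also listed for TLR6 and one beyond TLR7 also for TLR8.

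**Figure D1:**
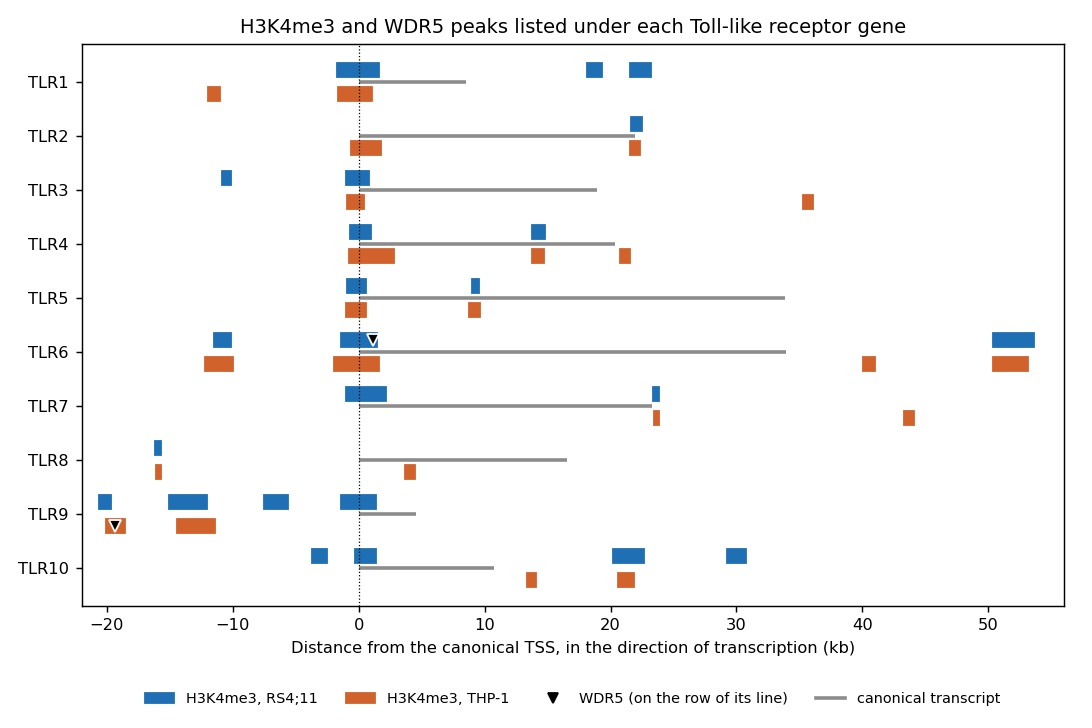
H3K4me3 peaks listed under each receptor in RS4;11 (blue, above) and THP-1 (orange, below), as kb from the TSS of the canonical transcript, with WDR5 peaks as black triangles and the transcript as a gray line. Peaks cover the TSS of 8 receptors in RS4;11 and 6 in THP-1, and the remaining peaks lie up to 53.7 kb away, since the listing reaches 20 kb beyond either end of a transcript.

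At the TSS the lines differed. A peak overlapped the TSS window, which starts 2000 bp before the TSS and ends 500 bp after it, for 8 of 10 receptors in RS4;11, where 49.2% of all protein-coding genes had one, and for 6 of 10 in THP-1, against 55.3%. TLR1, TLR3, TLR4, TLR5 and TLR6 were listed in both lines (5 receptors, pattern of 43.4% of genes). TLR7, TLR9 and TLR10 were listed in RS4;11 only (3 receptors, pattern of 5.72% of genes), and TLR2 in THP-1 only (1 receptor, 11.9% of genes). TLR8 was in neither, as were 38.9% of genes. In GENCODE the 5′ end of TLR1 is the start of TLR6, 52026 bp above the TSS of its canonical transcript, so positions below are counted from canonical TSSs. Calls and widths of TSS peaks over all genes were taken at 5′ ends unless stated. The calls for the 10 receptors were the same from either TSS.

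**Figure D2:**
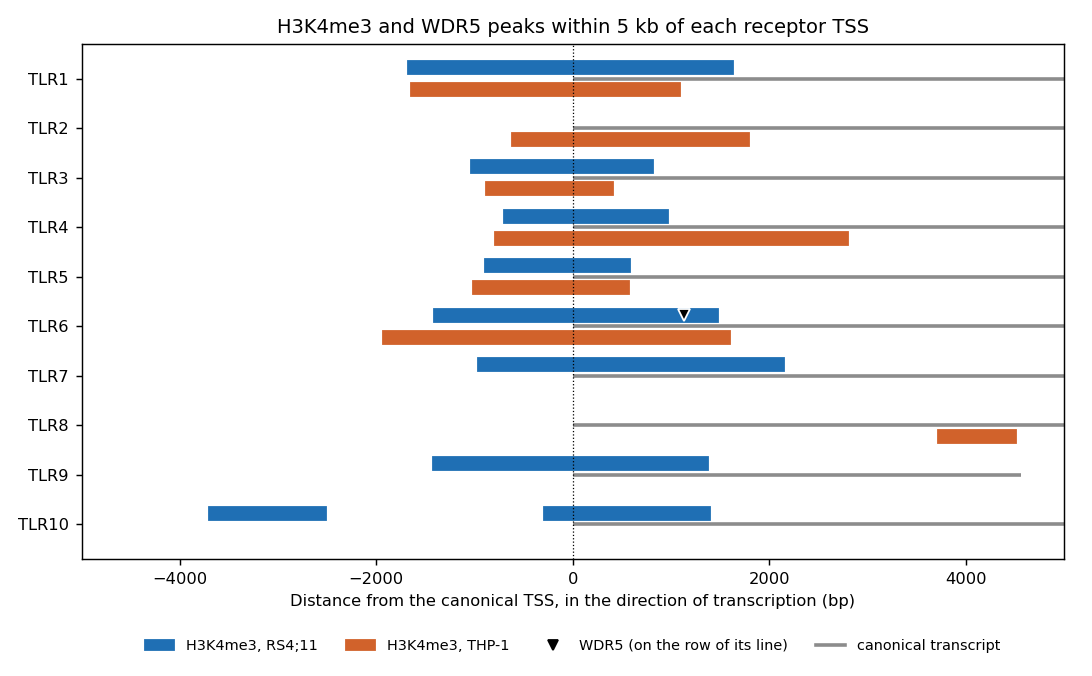
Listed peaks within 5000 bp of each canonical TSS, on a scale of bp in the direction of transcription, with RS4;11 in blue, THP-1 in orange, WDR5 as a triangle and the transcript in gray. TLR4 extends 2802 bp downstream in THP-1 against 967 bp in RS4;11, and TLR2, TLR7, TLR9 and TLR10 each have a TSS peak in a single line.

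Among the surface receptors, TLR1, TLR6 and TLR10 lie side by side on the minus strand of chromosome 4. TLR1, the partner of TLR2 for triacylated lipopeptides, had a TSS peak of 3314 bp in RS4;11 (chr4:38804779-38808092) and 2736 bp in THP-1 (chr4:38805324-38808059). The THP-1 peak lay wholly inside the RS4;11 peak. The upstream edges were 33 bp apart, 1680 and 1647 bp before the TSS, while the downstream edges were 545 bp apart, and both peaks covered exons 1 and 2 of 4. The RS4;11 peak was as wide as or wider than 80.7% of the 8492 distinct TSS peaks of that line, and the THP-1 peak than 70.0% of 9944.

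TLR6, the partner of TLR2 for diacylated lipopeptides, showed the opposite order. Its peak was 2892 bp wide in RS4;11 (chr4:38856961-38859852) and 3534 bp in THP-1 (chr4:38856838-38860371), and the THP-1 peak contained the RS4;11 peak entirely. The edges reached 1414 bp upstream and 1477 bp downstream in RS4;11, and 1933 bp and 1600 bp in THP-1. Most of the difference was thus on the upstream side. In THP-1 this width was reached or exceeded by few peaks, since 90.8% of TSS peaks were no wider.

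TLR10, the surface receptor of this family best known from B cells, was listed at its TSS in RS4;11 only, with 1686 bp (chr4:38783215-38784900). This peak began 289 bp before the TSS and ended 1396 bp after it. A further RS4;11 peak of 1197 bp lay 2507 to 3703 bp upstream, with no THP-1 peak at either place. Beyond the 3′ end both lines had a peak about 21 kb from the TSS, of 2403 bp in RS4;11 and 1267 bp in THP-1. RS4;11 had another of 1479 bp at 29.2 to 30.7 kb, and THP-1 one of 724 bp at 13.3 to 14.1 kb.

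Over the 125 kb from 20 kb below TLR10 to 20 kb above TLR6, RS4;11 had 7 peaks covering 14375 bp and THP-1 had 6 covering 11449 bp. In each line, 4 of them overlapped a peak of the other, again without the share of all peaks beside it. The THP-1 peaks without a counterpart were the 724 bp peak and one of 941 bp, 11.0 to 12.0 kb upstream of TLR1. Above TLR6, a peak of 1404 bp in RS4;11 and 2247 bp in THP-1 was listed for TLR6, but its nearest TSS was that of FAM114A1 on the opposite strand, 171 and 74 bp from the peak centers.

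TLR2, the common partner of TLR1 and TLR6, was the single receptor listed at its TSS in THP-1 and not in RS4;11. The THP-1 peak was 2419 bp wide (chr4:154604809-154607227), from 623 bp upstream to 1795 bp downstream, and covered exon 1 of 3. In RS4;11 the nearest listed peaks left 131 kb around this TSS empty. The 3′ end of the gene was alike in both lines, with a peak of 904 bp in RS4;11 and 794 bp in THP-1 that spanned the end of the last exon. Among all genes with a THP-1 TSS peak of 2000 to 3000 bp, 87.7% also had one in RS4;11.

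TLR4, the lipopolysaccharide receptor on chromosome 9, was listed in both lines and, of the 5 such receptors, differed most in width. The RS4;11 peak was 1667 bp (chr9:120465982-120467648), and 17.3% of TSS peaks in that line were no wider. The THP-1 peak was 3594 bp (chr9:120465890-120469483), and 92.0% of TSS peaks in that line were no wider. Upstream edges were 92 bp apart, so that nearly all of the difference of 1927 bp lay downstream, where the peak ended 967 bp after the TSS in RS4;11 and 2802 bp after it in THP-1.

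Farther into TLR4, over exon 3 of 3, both lines had a peak of similar size at 13.8 to 14.8 kb, of 963 bp in RS4;11 and 938 bp in THP-1. The deposited flags call this peak downstream of the gene and in neither exon nor intron. The reason for this difference from GENCODE was not tested. THP-1 had a further peak of 775 bp just beyond the gene end. Without it, THP-1 and RS4;11 had the same number of peaks at TLR4.

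TLR5, the flagellin receptor on chromosome 1, had the most similar widths of these 5 receptors. Its TSS peak was 1474 bp in RS4;11 (chr1:223316008-223317481) and 1596 bp in THP-1 (chr1:223316014-223317609). The peaks shared 1468 bp, their downstream edges were 6 bp apart, and the upstream edges 128 bp. An intronic peak about 9 kb downstream was 621 bp in RS4;11 and 901 bp in THP-1.

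Across the 8745 genes with a TSS peak in both lines, the THP-1 peak was a median 0.985 times as wide as the RS4;11 peak, with quartiles of 0.860 and 1.11. The ratio was 2.16 for TLR4, and 98.1% of genes had the same or a lower ratio. It was 1.22 for TLR6, 1.08 for TLR5, 0.826 for TLR1 and 0.699 for TLR3. All but TLR4 fell between the 5th and 95th percentiles of 0.524 and 1.56. The receptor ratios were taken at canonical TSSs and those of all genes at 5′ ends, a difference that matters for TLR1. Peak width is the only measure of size in these lists, and with single samples its error is unknown.

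**Figure D3:**
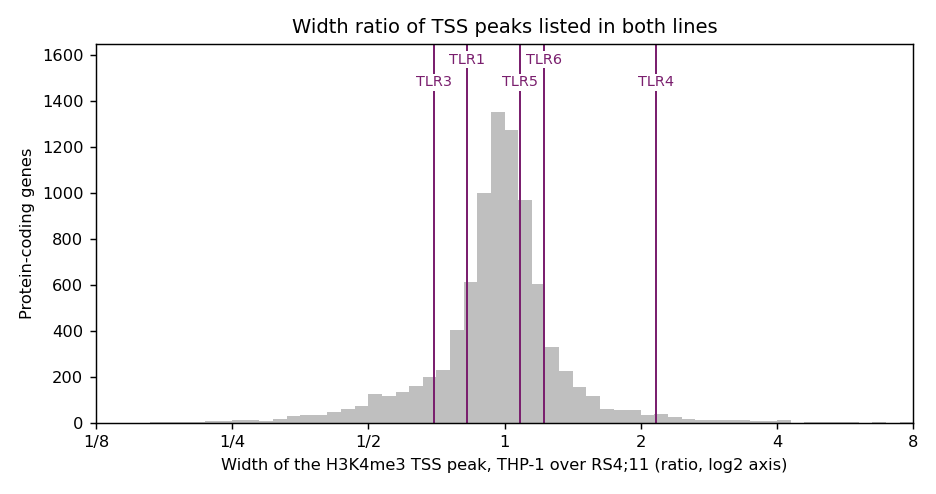
Histogram of the width of the TSS peak in THP-1 divided by that in RS4;11 for the 8745 protein-coding genes listed in both lines (log2 axis), with vertical lines at the 5 receptors listed in both. Receptor ratios are from canonical TSSs and those of all genes from 5′ ends. TLR4 stands at 2.16, in the right tail, and the other 4 between 0.699 and 1.22.

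Among the endosomal receptors, TLR3, the sensor of double-stranded RNA on chromosome 4, was listed in both lines. Its peak was 1853 bp in RS4;11 (chr4:186989278-186991130) and 1296 bp in THP-1 (chr4:186989424-186990719), the latter inside the former. In THP-1 only 17.4% of TSS peaks were as narrow or narrower. RS4;11 had a peak of 770 bp about 10 kb upstream. The THP-1 peak of 789 bp listed on the other side lay at the TSS of FAM149A, 109 bp from its center, and 35.7 kb from that of TLR3.

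TLR7, a sensor of single-stranded RNA on chromosome X, was listed at its TSS in RS4;11 only. The peak was 3125 bp wide (chrX:12884222-12887346), ran from 969 bp upstream to 2155 bp downstream, and covered exons 1 and 2 of 3. In THP-1 no peak was listed in the 97.5 kb around this TSS. Of the genes with an RS4;11 TSS peak of 3000 to 4000 bp, 87.1% also had one in THP-1.

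TLR8, the neighboring sensor of single-stranded RNA, had no TSS peak in either list. Both lines had a small peak in the stretch between TLR7 and TLR8, 493 bp in RS4;11 and 361 bp in THP-1, about 15.9 kb before the TLR8 TSS. THP-1 alone had a peak inside the gene, 794 bp wide (chrX:12928455-12929248), in an intron 3716 to 4509 bp after the TSS. The stretch without a peak around the TLR8 TSS was 56.0 kb in RS4;11 and 19.4 kb in THP-1.

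TLR9, the sensor of unmethylated CpG DNA on chromosome 3, was listed at its TSS in RS4;11 only, with 2804 bp (chr3:52258284-52261087). The peak was nearly symmetrical, with 1426 bp upstream and 1377 bp downstream, and it covered exon 1 and part of exon 2 of 2. In THP-1 no peak was listed in the 81.6 kb around it. A second RS4;11 peak of 1887 bp, 5.61 to 7.50 kb upstream and nearest to the start of ENSG00000173366, an unnamed coding gene model that spans TLR9 on the same strand, also had no THP-1 counterpart.

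Still farther upstream of TLR9, both lines had peaks at other genes. The peak nearest to TWF2, an actin-binding protein gene, was 2972 bp in RS4;11 and 3018 bp in THP-1. The peak nearest to PPM1M, a protein phosphatase gene, was 987 bp in RS4;11 and 1509 bp in THP-1. The THP-1 listing of TLR9 thus rested on peaks that lay nearer to other genes, whereas in RS4;11 it included the TSS.

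Of all genes with an RS4;11 TSS peak, 89.0% of those with a width of 1000 to 2000 bp, as for TLR10, and 94.3% of those with 2000 to 3000 bp, as for TLR9, also had one in THP-1. The summed width of all listed peaks was highest at TLR9 in RS4;11 (8650 bp) and at TLR6 in THP-1 (9458 bp). It was lowest at TLR8 in RS4;11 (493 bp) and at TLR7 and TLR8 in THP-1 (1155 bp each, the same peaks). The median over the 10 receptors was 3124 bp in RS4;11 and 2855 bp in THP-1. These sums count peaks of neighboring genes, and inside transcripts alone the medians were 1974 and 1896 bp.

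The receptor starts were mostly poor in CpG. In the 1001 bp around the canonical TSS, the ratio of observed to expected CpG was below 0.5 for 8 of 10 receptors, against 28.6% of protein-coding genes. The exceptions were TLR2 (0.75, 86 CpG) and TLR5 (0.66, 65 CpG), near the median of all genes (0.72). The lowest value was that of TLR9 (0.16, 13 CpG), the receptor for CpG DNA, and 6.88% of genes had the same or a lower value. TLR6 had the lowest G+C content, 33.1%, and 0.973% of genes had the same or less.

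Over all genes, a TSS peak was more frequent at CpG-rich starts. Of the genes with a ratio below 0.5, 17.1% had a TSS peak in RS4;11 and 19.1% in THP-1, against 62.0% and 69.9% of the other genes. The ratio was taken at the canonical TSS and the peak at the 5′ end, which lie apart for some genes. Among the 8 CpG-poor receptors, 7 had a TSS peak in RS4;11 and 4 in THP-1, from either TSS. The single receptor listed in THP-1 only, TLR2, was CpG-rich, and the 3 listed in RS4;11 only were CpG-poor, as were 8 of all 10 receptors. Over all genes the 2 patterns did not differ in this way. The median ratio was 0.76 for genes listed in RS4;11 only and 0.76 for those in THP-1 only. The receptor values are a description of 10 genes, with no test.

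**Figure D4:**
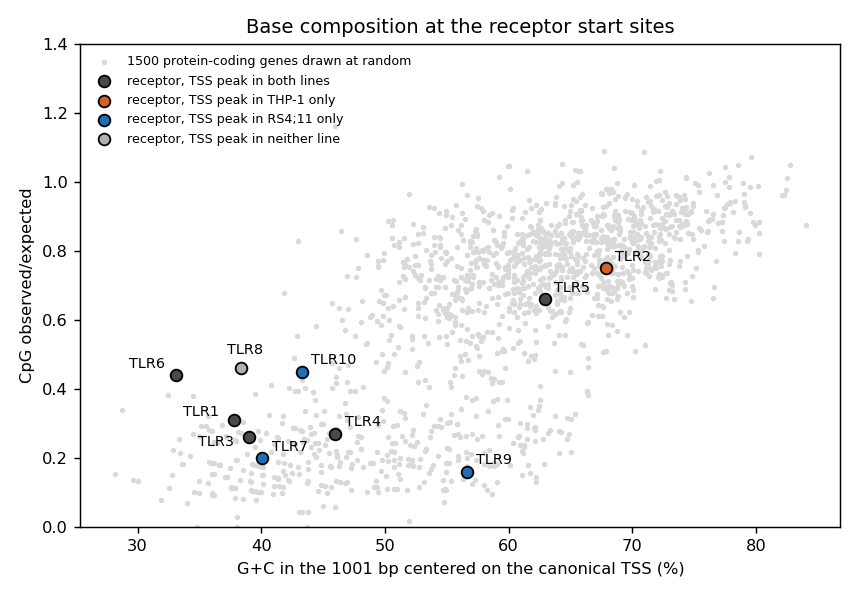
CpG observed/expected against G+C content (%) in the 1001 bp around the canonical TSS for the 10 receptors, colored by the lines in which a TSS peak was listed, over 1500 protein-coding genes drawn at random (light gray). The markers of 8 receptors lie below 0.5, and TLR2 and TLR5 lie at 0.75 and 0.66 among the CpG-rich genes.

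The 300 bp promoters (250 bp before to 50 bp after the TSS) were searched on both strands for 3 short motifs. The letters GAGGAA, the core bound by the myeloid and B-cell factor PU.1, were found in 27.6% of 15318 promoters. Among the 7 receptors in the table, TLR4 held 4 matches, TLR9 had 2 and TLR6 had 1, and TLR2, TLR3, TLR5 and TLR8 had 0. The AP-1 motif TGANTCA was found in 5.73% of promoters and, among receptors, once in TLR9. The GC box GGGCGG was found in 59.3% of promoters, with 2 matches each in TLR2 and TLR5 and 1 each in TLR3 and TLR4. In these promoters 0 matches of different motifs overlapped, and a match is a description of sequence only.

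Few WDR5 peaks were listed for any gene. In RS4;11, 1 of 10 receptors was listed with a WDR5 peak, where 4.04% of protein-coding genes were, and in THP-1 also 1 of 10, where 1.35% were. The RS4;11 peak in the first intron of TLR6 lay 954 to 1302 bp after the TSS, beyond the TSS window. It stood wholly inside the H3K4me3 peak of the same line, 175 bp from its downstream edge. The same place was inside the THP-1 H3K4me3 peak, but the nearest THP-1 WDR5 peak was 33.6 Mb from this TSS, and THP-1 had only 6 on chromosome 4.

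The THP-1 WDR5 peak listed under TLR9 lay 19.2 to 19.5 kb upstream of it. The nearest TSS was that of PPM1M, 758 bp from the peak center. This peak too was inside an H3K4me3 peak of its own line (chr3:52278236-52279744), but RS4;11, whose PPM1M peak started farther along, had no H3K4me3 peak over it. No WDR5 peak of either line overlapped the TSS window of a receptor.

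For the other receptors the nearest WDR5 peak was distant. In RS4;11 it was the TLR6 peak for TLR1 (50.7 kb) and TLR10 (72.5 kb), and other peaks for TLR9 (105 kb), TLR7 (222 kb) and TLR8 (261 kb). TLR2, TLR3, TLR4 and TLR5 had none within 1.02 Mb. In THP-1, which had 225 WDR5 peaks against 703, TLR4 was nearest at 458 kb, and among the remaining 8 receptors the shortest distance was 1.93 Mb, for TLR5.

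The 39 genes that serve these receptors gave the wider setting. A TSS peak was listed for 25 of 39 in RS4;11 and 22 of 39 in THP-1, and from the canonical TSS for 29 and 26, where 51.9% and 59.4% of protein-coding genes had one. The text below uses canonical TSSs, since the 5′ ends of TAB2, TAB3 and IKBKG lie away from their main starts. Of the kinases that carry the signal from the receptor complex (IRAK1, IRAK2, IRAK4, MAP3K7, TBK1, IKBKE, CHUK and IKBKB), all 8 were listed in both lines. So were all 6 ubiquitin ligases and partners, TRAF6, TRAF3, TAB1, TAB2, TAB3 and IKBKG. Counted from 5′ ends, 43.4% of all protein-coding genes were listed in both lines, as were all 8 kinases and 3 of these 6 genes.

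Adaptors were listed for 4 of 5 genes in RS4;11 and 3 of 5 in THP-1, transcription factors for 4 of 6 and 3 of 6, and negative regulators for 2 of 5 and 1 of 5. The shares of all protein-coding genes were 51.9% and 59.4%, and groups this small were not tested against them. RELA, IRF3 and the adaptor TICAM2 were listed in both lines. MYD88, the main adaptor of these receptors apart from TLR3, was unlisted in both lines, as were the NF-κB subunits NFKB1 and REL and the inhibitors NFKBIA and TNFAIP3. As for ACTB and B2M, no more can be said of them than that they were unlisted. SIGIRR, another inhibitor, was unlisted at its canonical TSS, with a THP-1 peak of 682 bp at another annotated TSS. TICAM1, the adaptor of TLR3, had 1982 bp in RS4;11 and 2384 bp in THP-1. TIRAP, which brings MYD88 to TLR2 and TLR4, had 2302 and 1405 bp, and its THP-1 peak was outside the window drawn from the gene's 5′ end.

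Genes of this list that were listed in a single line are named here. CD180, a receptor-like surface protein of B cells that tunes TLR4, had 2038 bp in RS4;11 and was unlisted in THP-1, while its partner LY86 had 4027 bp in RS4;11 and 1638 bp in THP-1. IRF5, a transcription factor downstream of TLR7 and TLR9, had 1671 bp in RS4;11 only. IRAK3, a brake on the IRAK kinases, had 3262 bp in RS4;11 only, and SARM1, an adaptor, had 1482 bp at its canonical TSS in RS4;11 only, with a THP-1 peak of 610 bp at another annotated TSS. HSP90B1, the chaperone that folds most of these receptors, had 3332 bp in THP-1 only.

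Of the 3 chaperones, 1 was listed from the canonical TSS in RS4;11 and 2 in THP-1, and of the 6 co-receptors and ligand carriers 4 in RS4;11 and 3 in THP-1. Again 51.9% and 59.4% of all protein-coding genes were listed. UNC93B1, which carries TLR7 and TLR9 to endosomes, had 3457 bp in RS4;11 and 2798 bp in THP-1. CD14, which hands lipopolysaccharide to TLR4, had 1004 bp in RS4;11 and 1335 bp in THP-1, and LY96, the co-receptor of TLR4, had 2150 and 1191 bp. IRF7 had 1832 bp in RS4;11 and 3456 bp in THP-1. LBP, which binds lipopolysaccharide in serum, the scavenger receptor CD36 and the chaperone CNPY3 were unlisted in both.

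One gene of the list had a WDR5 peak. It was MAP3K7, the kinase TAK1, with a peak of 268 bp in RS4;11 (chr6:91278950-91279217), inside the gene, 17.7 kb downstream of the TSS and outside any H3K4me3 peak.

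**Figure D5:**
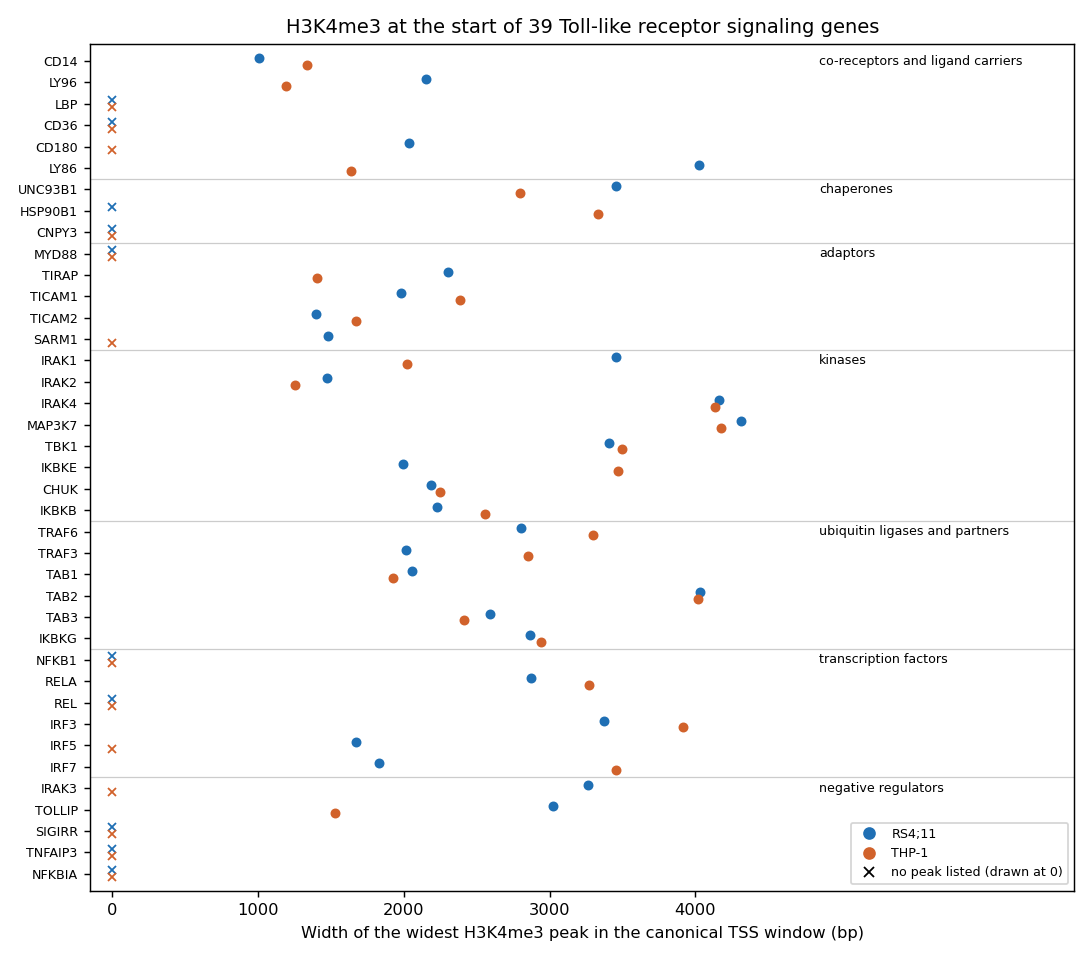
Width in bp of the widest H3K4me3 peak in the canonical TSS window for 39 signaling genes grouped by role, in RS4;11 (blue) and THP-1 (orange), with a cross at 0 where no peak was listed. All 8 kinases and all 6 ubiquitin ligases and partners have a point for both lines, and no point exceeds the list maxima of 4478 and 4446 bp.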

How the data were processed

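The authors cross-linked the cells, sheared (WDR5) or nuclease-digested (H3K4me3) the chromatin, mapped reads to hg19 and called peaks with MACS. Their processing notes name CASAVA 1.7 and 1.8.2. The deposited files pair each peak with the transcripts within 20 kb and flag exon, intron, upstream and downstream. They hold no read counts or scores, so the depth of each sample is unknown and neither intervals nor floors could be given.

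Lines were reduced to distinct peaks (width = end − start + 1) with Python 3.11.15 and numpy 2.4.6. Genes came from GENCODE release 44 on GRCh37. A gene was called listed at its TSS if a peak overlapped 2000 bp upstream to 500 bp downstream by at least 1 bp. For listing within 20 kb, 99.1% to 99.2% of coding transcripts were matched to genes. The window code was tested on simulated peaks.

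With 1 sample per line and antibody, no test was made. Receptors, signaling genes and markers were chosen with earlier results of these data known. A further B-lineage marker is not reported here. The named genes are all receptors, signaling genes whose listing at the TSS differed between lines or that had a WDR5 peak, and other genes nearest to a receptor's peaks. Further genes were named, after their values were seen, as members of a counted group. The alternatives changed the window, the TSS, the overlap and the minimum width.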

Additional observations from a re-analysis of the deposited data

How the results depend on the processing

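Of 54 alternatives, 48 left the count or median width within 1.5 times of the value reported. The 54 include settings for the counts of all protein-coding genes, none of which moved beyond that limit. The 48 include a fall from 6 to 4 receptors in THP-1, which is at the limit. When the peak center had to lie in the TSS window, the signaling genes fell from 25 to 15 in RS4;11 and from 22 to 10 in THP-1. Of 20136 protein-coding genes, those with a TSS peak fell too, from 9897 to 6647 in RS4;11 and from 11142 to 7458 in THP-1. The cause was not tested. Receptors with a WDR5 peak within 20 kb by position numbered 2 in RS4;11, since the long TLR1 model reaches the TLR6 peak, and 3 within 100 kb of the TSS. The median summed width fell to 1974 bp in RS4;11 and 1896 bp in THP-1 when peaks outside transcripts by the deposited flags were left out. For the receptors at the TSS, requiring the center removed TLR7 and TLR10 in RS4;11 and TLR2 and TLR4 in THP-1, leaving 6 and 4. The fall over all genes given above applies here too. A window of 5000 bp to each side added TLR8 in THP-1, making 7, while the count over all genes rose from 11142 to 12588. The remaining windows, the canonical TSS (chosen after the data were seen), every transcript's TSS and minimum widths of 500 and 1000 bp gave 8 and 6. No paired analysis was possible because each line and antibody had 1 sample and the comparisons come from no test. The lists give no peak heights, so weak and strong peaks count alike, and a receptor that is unlisted may still carry the mark.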
